A study of Homo sapiens with 42 samples.

Results

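The region described here is the distal end of the long arm of human chromosome 19, from position 52000000 of the genome build hg19 onwards, and its members are the m6A peaks that begin there in each of 7 deposited peak lists. N6-methyladenosine (m6A) is a chemical modification in which an adenosine of a messenger RNA carries a methyl group, and a peak is a stretch of transcript that was more abundant after pull-down with an antibody against m6A (immunoprecipitation, IP) than in the unselected RNA (input). The 7 lists held 2859 peaks in the region, between 382 and 466 per list. In the control list these were 466 of 33672 peaks on all chromosomes, or 15.4% of the peaks on chromosome 19. The last peak ended at position 59110839. Members were taken by position alone, so no peak value entered the rule. The choice was made with earlier results of these data known. The first control peak inside the boundary was chr19:52090162-52090372, with a fold enrichment of IP over input of 7.71, and the last one outside it was chr19:51918160-51918590, with a fold enrichment of 18.0.

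This end of chromosome 19 is known for clusters of genes that encode KRAB zinc finger proteins. These proteins bind DNA through tandem zinc fingers and silence transcription, many of them at transposable elements, through a corepressor recruited by the KRAB domain. The genes arose by tandem duplication, so neighbours are similar in sequence, and the zinc fingers are typically encoded together in 1 long last exon. m6A is commonly dense in long internal exons and near stop codons. m6A is written by a complex in which METTL3 carries the catalytic activity, METTL14 helps to hold the RNA and WTAP keeps the complex in nuclear speckles. SETD2 is the methyltransferase that places the trimethyl mark on histone H3 along transcribed gene bodies.

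All samples were HepG2, an established human hepatocellular carcinoma cell line, infected with lentivirus that expressed a short hairpin RNA (shRNA) and selected with puromycin. For each of 7 conditions there were 3 input and 3 IP libraries, which makes 14 groups and 42 samples. A first set holds a control shRNA (control) and shRNAs against METTL3, METTL14, WTAP and SETD2 (SETD2 #1), and a second set holds another shRNA against SETD2 (SETD2 #2) and a separate control shRNA for it (second control). All the conditions thus carry an integrated shRNA, and each gene apart from SETD2 was targeted by 1 shRNA. The 3 replicates of a condition were called together into 1 list, so the lists carry no replicate spread, and no test between conditions was possible. Read depth and the level of the targeted genes were not measured in the peak lists. Shares are given with exact 95% intervals (Clopper-Pearson) that take in the counting error alone. Peaks of a gene are not independent of each other, but the intervals treat them as if they were. Intervals that lie apart are therefore not a test of a difference.

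The files name genes by Ensembl identifier and do not pair the identifiers with gene names. The peaks of the 7 lists in the region carried 214 identifiers, and 0 of them matched the RefSeq table used here, so which peaks lie in zinc finger genes was not determined. The region is therefore called distal chromosome 19, and a gene means one identifier, given with its position. Gene positions below run from the first to the last base of its peaks over all 7 lists in hg19, unless stated otherwise.

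Genes of distal chromosome 19 carried about as many peaks as genes elsewhere on the chromosome. In the control list 191 genes held 466 peaks, a mean of 2.44 peaks per gene, against 2.61 for the 986 genes of the rest of chromosome 19. It was 2.35 in the METTL3 list, and METTL14 had 2.34, WTAP 2.29, SETD2 #1 2.39, the second control 2.44 and SETD2 #2 2.46. Over the rest of the chromosome it lay between 2.31 and 2.64. Of control peaks alone, 69 of the 191 distal genes had 1 peak and 17 had 5 or more, which was 8.90% of the genes against 13.6% in the rest. SETD2 #2 was the list in which the distal mean was furthest above that of the rest, 2.46 against 2.31, and METTL14 the list in which it was furthest below, 2.34 against 2.64.

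Most of the genes with the largest numbers of control peaks lay beyond 54 Mb and had several peaks in every list. The gene on the minus strand at chr19:57323007-57352036 (positions of its control peaks) had 9 peaks in the control list and 8, 8, 9 and 8 in METTL3, METTL14, WTAP and SETD2 #1, with 10 in the second control and 8 in SETD2 #2. The gene on the minus strand whose control peaks span chr19:55741447-55770363 had 8 control peaks and between 6 and 10 in the other lists. The gene on the plus strand at chr19:55587248-55599291 had 9 control peaks and 6, 9, 10 and 7 in the knockdowns of the first set, but 3 in each list of the second set. The gene on the plus strand at chr19:58694456-58724718 had 7 control peaks and between 6 and 8 in those knockdowns, but 3 in the second control and 2 in SETD2 #2. In the last 2 of these genes the lists of the second set had fewer peaks than all lists of the first set. Of the 10 genes with the most control peaks, 2 lay between 52 and 54 Mb.

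Peaks in the region were as wide as elsewhere on the chromosome in the control list but were more often made of a single block. A block is a stretch without an intron, and peak width counts the bases of the blocks. The median width was 270 bases in the control list, 267.5 in METTL3, 240 in METTL14, WTAP and SETD2 #1, 239.5 in the second control and 210 in SETD2 #2. In the same order of lists, the medians for the rest of chromosome 19 were 271, 270, 270, 269, 270, 240 and 240 bases. The distal median was nearly equal to that of the rest in the control, METTL3 and second control lists and lower in the others. In the control list 307 of 466 distal peaks (65.9%, 61.4 to 70.2%) had 1 block, against 55.0% (53.1 to 57.0%) in the rest. The distal share was higher in all 7 lists, and in SETD2 #2 it reached 77.1% (72.7 to 81.2%) against 63.9% (61.8 to 66.1%). Blocks of at least 500 bases were found in 76 of the distal control peaks, 16.3%, against 16.7% in the rest.

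**Figure D1:**
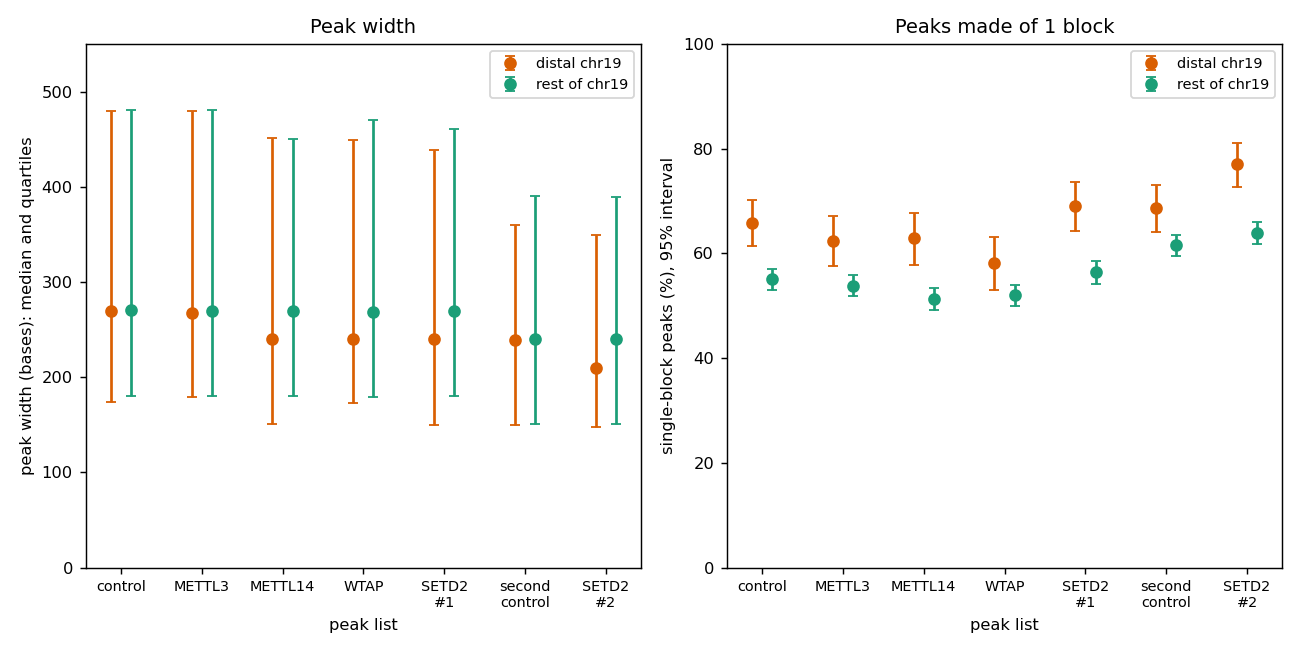
Left, median peak width in bases with the lower and upper quartiles as bars; right, share of peaks made of 1 block in percent with exact 95% intervals, for distal chromosome 19 (orange) and the rest of the chromosome (green) in each list. Median widths nearly coincide in the control, METTL3 and second control lists and are lower in the distal region in the others. The single-block share is higher in the distal region in all 7 lists, 65.9% against 55.0% in the control list.

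The median gap between neighbouring peaks of a gene was shorter in the region than in the rest in all 7 lists. Among control peaks it was 658 bases over 275 pairs, introns included, against 747 bases over 1583 pairs in the rest. The gap was under 1000 bases for 59.6% (53.6 to 65.5%) of distal pairs and 54.7% (52.2 to 57.2%) of the others, so the intervals overlapped. In SETD2 #2 the shares were 64.4% (57.9 to 70.5%) and 53.6% (50.6 to 56.5%).

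By the authors' own values distal peaks were weaker by p-value in all 7 lists, while fold enrichment went either way. The median log10 p-value of IP against input was −9.47 in the control list against −12.0 in the rest, and the distal median was closer to 0 in all 7 lists. The median fold enrichment was 8.06 in the distal control list against 7.28 in the rest. It was also higher than in the rest in METTL14, WTAP and SETD2 #2. In METTL3 (7.845 against 8.54), SETD2 #1 (5.41 against 6.05) and the second control (4.40 against 4.89) it was lower. The distal medians of the second set were 4.40 in the second control and 4.28 in SETD2 #2. Both were below the distal medians of the first set, which ran from 5.41 in SETD2 #1 to 8.50 in WTAP.

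The number of peaks was uneven along the region. In the control list the 1-Mb window from 58 to 59 Mb held 130 peaks and the window from 55 to 56 Mb held 89, while the other 6 windows held between 25 and 49. In the window from 53 to 54 Mb the control list had 38 peaks, against 14 peaks when METTL3 was knocked down, and METTL14 had 12, WTAP 14 and SETD2 #1 21. The same window held 25 peaks in the second control and 40 in SETD2 #2. The window from 55 to 56 Mb went the other way in WTAP, which had 109 peaks there, whereas WTAP had 92 peaks from 58 to 59 Mb. The METTL3, METTL14, WTAP and SETD2 #1 lists were thus shortest, relative to the control, at the near end of the region.

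**Figure D2:**
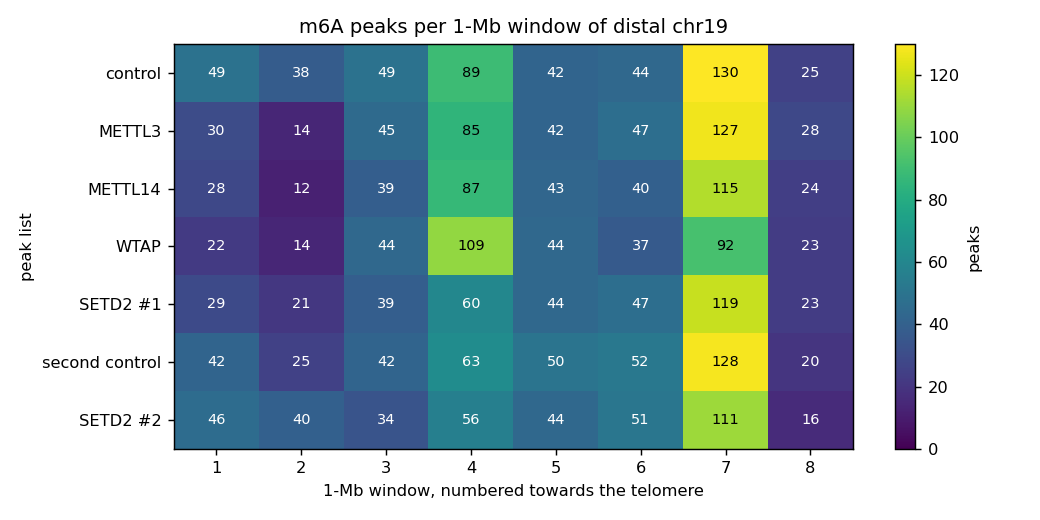
Number of m6A peaks in each 1-Mb window of distal chromosome 19 (horizontal axis, windows numbered towards the telomere from 52 Mb) in each of the 7 lists (vertical axis), with the count in each cell. Window 2 falls from 38 peaks in the control list to between 12 and 14 in METTL3, METTL14 and WTAP and to 21 in SETD2 #1. It holds 25 in the second control and 40 in SETD2 #2.

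Next, each knockdown was compared with its control for peaks that were no longer called. A control peak was counted as absent when no peak of the other list shared a base of its blocks on the same strand. Absence depends on read depth and transcript level as well as on methylation. In distal chromosome 19, 118 of 466 control peaks were absent from METTL3, which is 25.3% (21.4 to 29.5%). The share was 18.7% (17.2 to 20.3%) in the rest of the chromosome and 22.8% over all chromosomes. METTL14 lacked 150 of the 466, 32.2% (28.0 to 36.6%), against 24.0% (22.3 to 25.7%) in the rest and 29.8% over all chromosomes. WTAP lacked 158, 33.9% (29.6 to 38.4%), against 22.97% (21.4 to 24.6%) and 28.8%. For these 3 knockdowns of the writer complex the distal interval lay above that of the rest of chromosome 19. The 466 peaks came from 191 genes and are not independent, so this is not a test. The distance from the share over all chromosomes was smaller, and for METTL3 and METTL14 that share lay inside the distal interval.

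The SETD2 lists and the controls differed less from the rest of chromosome 19. Both SETD2 intervals lay above the share over all chromosomes, as did that of control peaks absent from the second control. SETD2 #1 lacked 155 distal control peaks, 33.3% (29.0 to 37.7%), against 27.7% (26.0 to 29.5%) in the rest and 27.0% over all chromosomes. SETD2 #2 lacked 117 of the 422 distal peaks of the second control, 27.7% (23.5 to 32.3%), against 22.6% (20.9 to 24.4%) and 20.5%. Between the control lists themselves 157 distal peaks of the control, 33.7% (29.4 to 38.2%), were absent from the second control, against 31.9% (30.1 to 33.8%) in the rest and 28.6% over all chromosomes. In the opposite direction 57 distal peaks of the second control, 13.5% (10.4 to 17.1%), were absent from the control, against 11.6% and 15.6%. The count of distal control peaks missing from the other control list, 157, was thus close to the 158 missing from WTAP. The comparisons of the first set share 1 control list and are not independent of each other.

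Peaks that were no longer called were mostly narrow and weak, in the region as over all chromosomes. The distal control peaks absent from METTL3 had a median width of 150 bases and a median log10 p-value of −3.63, and those present had 358 bases and −16.15. Over all chromosomes the peaks absent from METTL3 had medians of 150 bases and −3.65. Single-block peaks were absent from METTL3 in 34.2% (28.9 to 39.8%) of cases and peaks of several blocks in 8.18% (4.43 to 13.6%). METTL14 lacked 43.3% and 10.7% of these classes, WTAP 45.6% and 11.3%, and SETD2 #1 41.7% and 16.98%. Over all chromosomes the shares were 29.3% and 12.6% (METTL3), 38.8% and 15.7% (METTL14), 37.2% and 15.5% (WTAP), and 33.6% and 16.7% (SETD2 #1). SETD2 #2 did not show this split in the region, with 27.6% of single-block and 28.0% of several-block peaks absent, against 26.8% and 15.9% in the rest of chromosome 19 and 24.1% and 14.0% over all chromosomes.

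Because distal peaks had weaker p-values, the losses were also read within classes of p-value. The peaks of each control list were divided into 5 equal classes over all chromosomes, and the share expected for distal peaks was computed as if each class had the rate of the rest of chromosome 19. At those rates 20.8% of distal control peaks would be absent from METTL3, where 25.3% were. For METTL14 the values were 26.7% against 32.2% found, for WTAP 25.5% against 33.9%, and for SETD2 #1 30.7% against 33.3%. For SETD2 #2 the share at those rates, 29.5%, was above the 27.7% found. At the class rates of all chromosomes the METTL3 and METTL14 shares, 25.2% and 32.7%, came within 1 percentage point of those found. The WTAP and SETD2 #1 shares were 31.5% and 29.9%, and that of SETD2 #2 was 26.9%, now below the 27.7% found.

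Absent peaks were most frequent at the near end of the region, in the windows from 52 to 54 Mb, which were set apart after the values had been seen and are described without a test. Of the 87 control peaks there, 50.6% (39.6 to 61.5%) were absent from METTL3, 59.8% (48.7 to 70.1%) from METTL14, 65.5% (54.6 to 75.4%) from WTAP and 52.9% (41.9 to 63.7%) from SETD2 #1. Beyond 54 Mb the shares over 379 peaks were 19.5% (15.7 to 23.9%), 25.9% (21.5 to 30.6%), 26.6% (22.3 to 31.4%) and 28.8% (24.3 to 33.6%), and all 4 of these intervals overlap those of the rest of chromosome 19. The second control lacked 41.4% (30.9 to 52.4%) of the 87 peaks and 31.9% of those beyond. SETD2 #2 lacked 31.3% (20.6 to 43.8%) of the 67 peaks of the second control there and 27.0% of those beyond. The peaks of these windows were weaker, with a median log10 p-value of −5.38 in the control list against −10.7 beyond 54 Mb, and 81.6% of them had a single block against 62.3%.

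**Figure D3:**
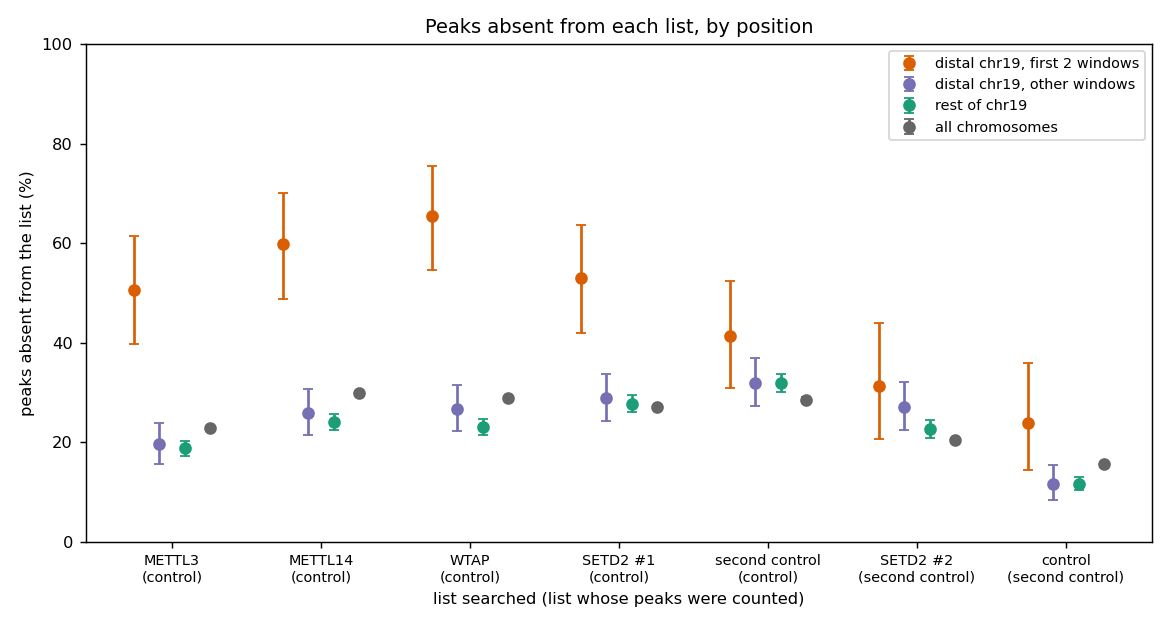
Share of peaks absent from each list in percent (vertical axis), with exact 95% intervals, for each pair of lists (horizontal axis, with the list whose peaks were counted in parentheses), in windows 52 to 54 Mb (orange), from 54 Mb to the end (purple), in the rest of chromosome 19 (green) and on all chromosomes (grey). The orange points stand between 50.6 and 65.5% for the 4 knockdowns of the first set and at 41.4% for the second control, while the purple points lie near the green ones.

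Within p-value classes the near end still had more absent peaks in the 4 knockdowns of the first set. At the class rates of the rest of chromosome 19, 28.2% of the 87 peaks would be absent from METTL3, 35.3% from METTL14, 33.9% from WTAP and 40.9% from SETD2 #1. These are 22.4, 24.5, 31.7 and 11.9 percentage points below the shares found. At the class rates of all chromosomes the differences were 16.6, 17.3, 24.4 and 12.8 points. For the second control the share at the rates of the rest was 44.6%, above the 41.4% found. For SETD2 #2 it was 39.2%, above the 31.3% found. The rates of all chromosomes gave 40.6% for the second control, now below the share found, and 36.2% for SETD2 #2, still above. With classes by fold enrichment and the rates of the rest, both shares lay below those found, at 35.8% and 22.6%. With those classes the shares for the 4 knockdowns of the first set were 20.8, 27.8, 26.5 and 31.1%, also below those found. In the fourth p-value class, 16 of 29 peaks were absent from METTL3, 23 from METTL14, 24 from WTAP and 20 from SETD2 #1. These are 55.2, 79.3, 82.8 and 69.0%. The rest of chromosome 19 had 28.5, 40.0, 36.3 and 44.6% in that class. In the same class the second control lacked 14 of the 29 peaks, 48.3% against 48.6%. With p-value classes, the shares found beyond 54 Mb differed by at most 3.11 points from those at the rates of the rest, in these 6 comparisons. With classes by fold enrichment the difference there reached 5.85 points in WTAP and 4.64 in SETD2 #2.

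**Figure D4:**
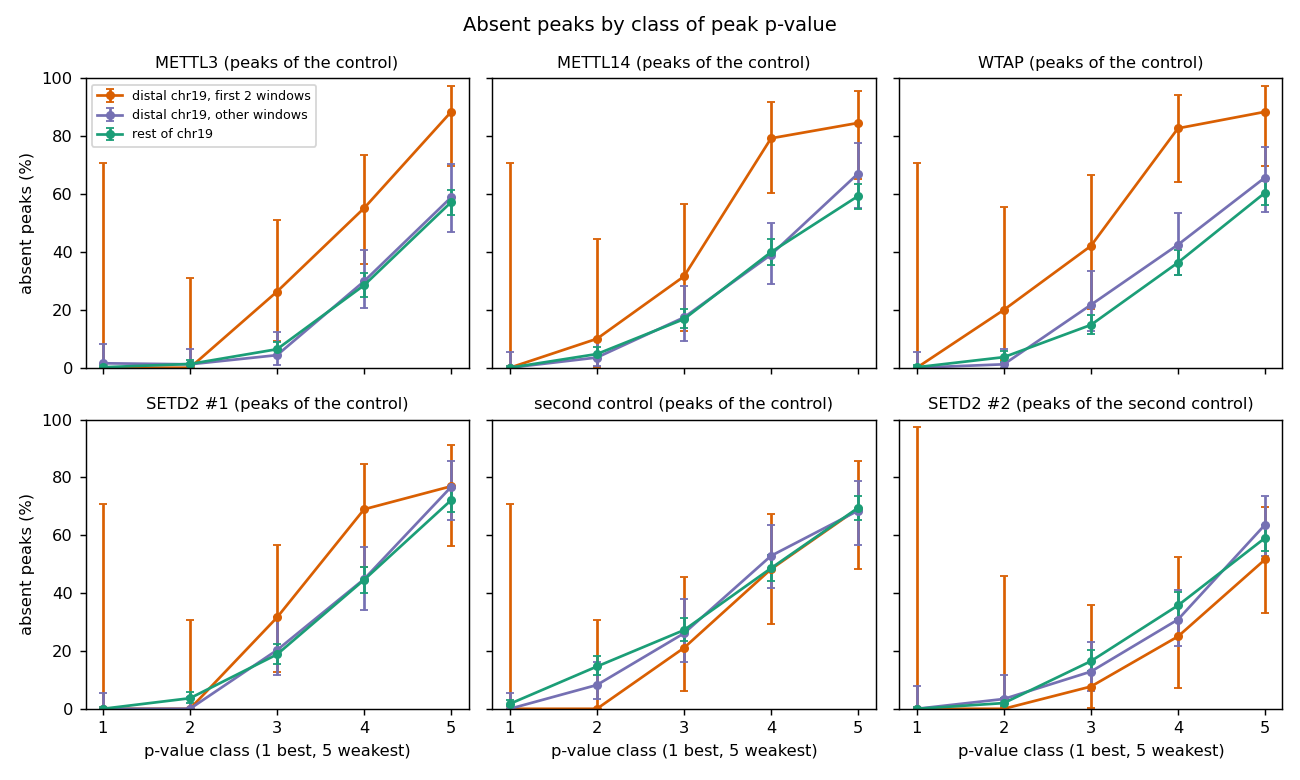
Share of absent peaks in percent (vertical axis, exact 95% intervals) by class of peak p-value (horizontal axis, 1 the best and 5 the weakest) for 6 pairs of lists, in windows 52 to 54 Mb (orange), from 54 Mb to the end (purple) and in the rest of chromosome 19 (green). In METTL14, WTAP and SETD2 #1 the orange line reaches 79.3, 82.8 and 69.0% in class 4. The green line is at 40.0, 36.3 and 44.6% there. In the second control the orange and green lines nearly coincide in that class (48.3 and 48.6%).

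Among 493 windows of 1 Mb on all chromosomes that held at least 20 control peaks, the window from 53 to 54 Mb had the highest absent share in METTL3 (26 of 38 peaks, 68.4%), METTL14 (28, 73.7%) and WTAP (27, 71.1%). It ranked at place 3 in SETD2 #1 (22, 57.9%) and at place 4 in the second control (23, 60.5%). The medians over those windows were 20, 24.5, 24.7, 25 and 29.0%. With windows of at least 10 control peaks, of which there were 981, the places were 7, 12, 13, 23 and 13. SETD2 #2 lacked 9 of the 25 peaks of the second control, 36.0%, at place 14 of 475. With windows that start at half-megabase steps, the window from 52.5 to 53.5 Mb had 31 of 56 peaks absent from METTL3 and 40 from WTAP, each at place 1 of 482, and 36 absent from METTL14, at place 5. In that window the second control lacked 22 of the 56, at place 70. In the next window, from 53.5 to 54.5 Mb, the second control lacked 12 of 21 peaks, at place 4, beside 10 in METTL3 at place 7, 14 in METTL14 at place 3 and 12 in WTAP at place 10. In the reverse comparison 10 of the 25 second-control peaks from 53 to 54 Mb, 40%, were absent from the control, at place 3 of 475.

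Gene by gene, 23 of the 39 genes with a control peak between 52 and 54 Mb had fewer peaks in METTL3, 14 had as many and 2 had more. In METTL14 and in WTAP 26 had fewer and 2 had more, and in SETD2 #1 25 had fewer and 5 more. In the second control 22 had fewer and 5 more. Beyond 54 Mb, in the same order of lists, 49, 59, 63, 59 and 57 of 152 genes had fewer peaks. There 40, 31, 31, 28 and 46 genes had more. Genes with fewer or more peaks were not counted over all chromosomes. No peak was left for 13 of the 39 genes in METTL3, for 18 in METTL14, for 17 in WTAP, for 12 in SETD2 #1 and for 9 in the second control. These are 33.3, 46.2, 43.6, 30.8 and 23.1% of the genes, against 12.9, 18.0, 16.6, 15.1 and 13.4% over all chromosomes. Beyond 54 Mb no peak was left for 7, 11, 16, 21 and 19 of 152 genes. In the writer knockdowns, absent peaks at the near end often went with the whole gene. Of the 44 peaks absent from METTL3, 15 (34.1%, 20.5 to 49.9%) lay in a gene that kept another peak. Beyond 54 Mb 66 of 74 (89.2%, 79.8 to 95.2%) did so, and over all chromosomes 69.7%. In METTL14 these shares were 28.8, 88.8 and 65.4%, and in WTAP 36.8, 78.2 and 67.4%. SETD2 #1 differed less by position, with 58.7, 67.9 and 68.7%. For the second control 25 of 36 (69.4%, 51.9 to 83.7%) lay in such a gene at the near end and 92 of 121 (76.0%, 67.4 to 83.3%) beyond. Over all chromosomes it was 74.0%.

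ENSG00000197608.11, on the minus strand at chr19:52567871-52570836, had 6 peaks in the control list and 0 in METTL3, METTL14 and WTAP. It had 2 peaks in SETD2 #1, 4 in the second control and 6 in SETD2 #2. All of its peaks were weak, and the best log10 p-value of a control peak was −5.72. ENSG00000167766.18, on the minus strand at chr19:53097403-53157460, had 4 control peaks and 0 in all 4 knockdowns of the first set, with 1 in the second control and 4 in SETD2 #2. Both genes thus had no called peak in the lists of the 3 writer subunits and as many peaks in SETD2 #2 as in the control.

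Other genes of these windows showed the same direction in part. The gene at chr19:52090162-52091629, plus strand, had 3 control peaks, 0 in the 3 writer knockdowns and 1 in each of the remaining lists. The gene at chr19:53638561-53652666, minus strand, had 3 control peaks, 0 in METTL3, WTAP and SETD2 #1, 2 in METTL14 and 1 in each list of the second set. The gene at chr19:53970989-53996462, plus strand, went from 3 control peaks to 1 in METTL3 and 0 in METTL14 and WTAP, but it also had 1 in the second control. In contrast the gene at chr19:52693292-52719888, plus strand, had 3 peaks in all 7 lists, and the gene at chr19:52447591-52448966, plus strand, had 2 or 3. In all, 8 of the 39 genes with a control peak at the near end had no peak in any of METTL3, METTL14 and WTAP, and 3 of the 8 had one in the second control. Beyond 54 Mb 5 of 152 genes had no peak in any of the 3 writer lists. Of the 8 genes at the near end, 4 had several control peaks and the others had 1. Such genes were not counted in the rest of chromosome 19 or over all chromosomes.

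**Figure D5:**
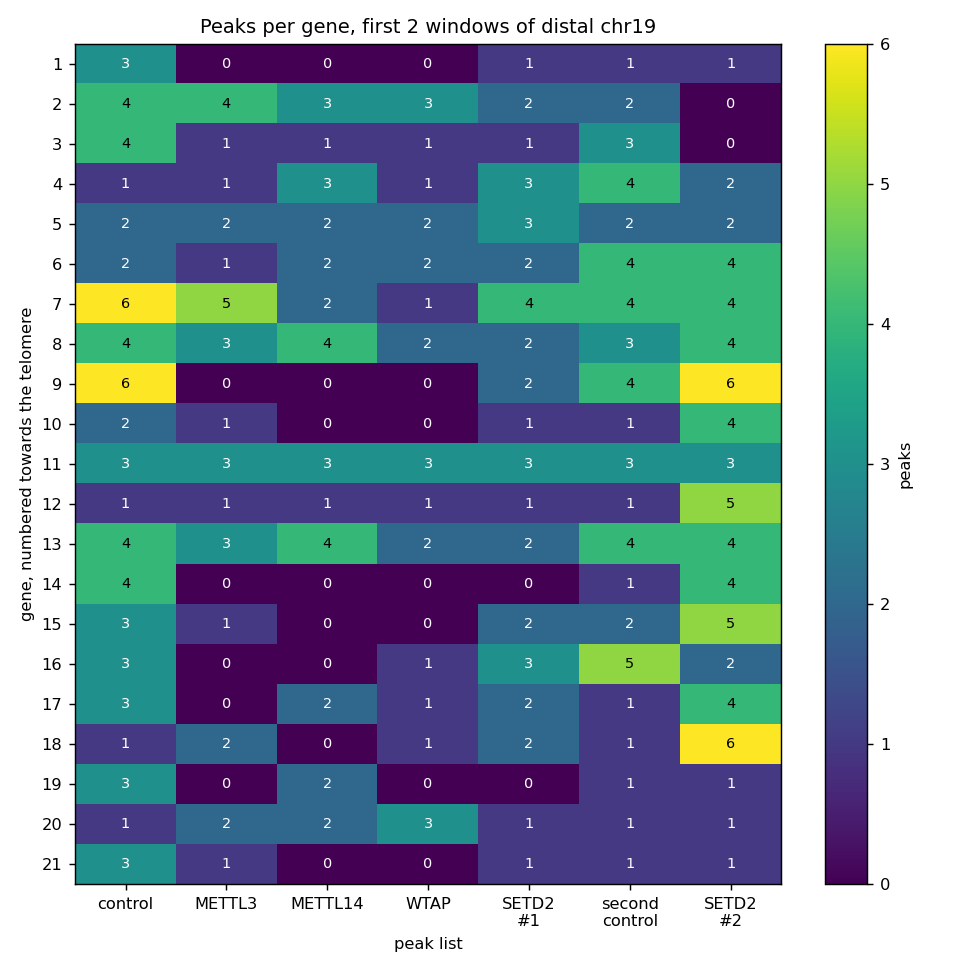
Number of peaks of each gene (rows, numbered from 52 Mb towards 54 Mb) in each list (columns), for the 21 genes with at least 3 peaks in any list. Gene 9 has 6 peaks in the control list, 0 in METTL3, METTL14 and WTAP and 6 in SETD2 #2, gene 11 has 3 in all lists, and genes 12 and 18 have 5 and 6 peaks in SETD2 #2 and 1 in its control.

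Across the whole region 92 of 466 control peaks, 19.7% (16.2 to 23.7%), were absent from METTL3, METTL14 and WTAP together, against 11.8% (10.6 to 13.1%) in the rest of chromosome 19 and 15.6% over all chromosomes. Of the 92, 30 were found in the second control. Among the peaks absent from all writer knockdowns, 112 of 303 in the rest and 2099 of 5262 over all chromosomes were found there. As a share of all distal control peaks the 30 were 6.44%, against 6.23% over all chromosomes and 4.36% in the rest. By p-value 5 of the 92 reached the stronger portion of the control list, bounded by its median, which held 207 distal peaks. Those 5 were 1.07% (0.35 to 2.49%) of the distal control peaks, against 0.27% in the rest and 0.73% over all chromosomes. The best of them was chr19:57876275-57876513 on the plus strand, 239 bases in 1 block, with a fold enrichment of 4.50 and a log10 p-value of −23.2, and it was called in SETD2 #1, SETD2 #2 and the second control. The next was chr19:54377630-54377869 on the plus strand, with a fold enrichment of 1.92 and a log10 p-value of −17.2, called in SETD2 #1 but in neither list of the second set. The other 3 lay between 53 and 54 Mb on the minus strand. Those were chr19:53117711-53117981 (fold enrichment 5.24) and chr19:53115974-53116303 (4.54), both in ENSG00000167766.18, and chr19:53268885-53269094 (4.68).

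The strongest distal peaks were called in all conditions. The 5 control peaks with the best p-values were present in all 7 lists. The first, chr19:56614395-56614723 on the minus strand, was 329 bases wide with a fold enrichment of 42.8. The peak with the highest enrichment of the 5 was chr19:54597933-54603068 on the minus strand, 5 blocks of 1846 bases in all, at 134-fold. In all, 179 of the 466 control peaks, 38.4% (34.0 to 43.0%), were found in every list, against 46.2% (44.3 to 48.2%) in the rest and 45.7% over all chromosomes, and between 52 and 54 Mb this was 17 of 87, 19.5% (11.8 to 29.4%). A further 44 distal control peaks, 9.44% (6.95 to 12.5%), were found in no other list, against 5.64% in the rest and 6.85% over all chromosomes.

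Some losses of stronger peaks differed between knockdowns. The strongest distal peak absent from WTAP was chr19:52529149-52533163 on the minus strand, with 3 blocks of 450 bases in all, a fold enrichment of 27.4 and a log10 p-value of −39.7, and it was called in the other 6 lists. In the same gene the peak chr19:52518966-52519595, 630 bases at 5.50-fold, was absent from METTL14 and WTAP only. That gene carried 6 control peaks, then 5 (METTL3), 2 (METTL14) and 1 (WTAP), with 4 in each of SETD2 #1, the second control and SETD2 #2. The strongest peak absent from METTL3, chr19:55899563-55899832 on the plus strand, had a log10 p-value of −99.8 but a fold enrichment of 1.81, and it was called in the other 6 lists. For SETD2 #1 the 3 leading absent peaks were chr19:52794360-52794719 on the plus strand at 4.99-fold, and, on the minus strand, chr19:56104801-56105010 at 56.6-fold and chr19:55861538-55861985 at 37.7-fold. The last 2 of these were called in METTL3, METTL14 and WTAP but were also absent from the second control and SETD2 #2.

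Peaks gained in a knockdown were fewer than peaks lost. Of 418 distal METTL3 peaks 44, 10.5% (7.75 to 13.9%), were absent from the control, against 13.5% (12.2 to 14.9%) in the rest of the chromosome and 10.6% over all chromosomes. METTL14 gained 39 of 388, 10.1% (7.25 to 13.5%), against 14.3% and 12.7%, and WTAP gained 52 of 385, 13.5% (10.3 to 17.3%), against 14.5% in the rest and 13.5% over all chromosomes. SETD2 #1 gained 30 of 382, 7.85% (5.36 to 11.0%), against 7.11% and 8.07%. The peaks gained in these 4 lists were short, with median widths between 105.5 and 151 bases, and most lay in genes that had a control peak. Gained peaks over all chromosomes were alike, with median widths between 120 and 151 bases. Between 69.9 and 80.3% of them lay in genes that had a control peak. An exception by strength was chr19:55562352-55570619 on the minus strand, a gain of WTAP at 30.3-fold, which was also called in METTL3, METTL14 and SETD2 #1. The peak chr19:54623728-54625527 on the minus strand was likewise called in all 4 knockdowns of the first set and in neither control.

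SETD2 #2 was the exception among the knockdowns. Of its 398 distal peaks 90, 22.6% (18.6 to 27.0%), were absent from the second control, against 12.8% (11.3 to 14.3%) in the rest of chromosome 19 and 14.5% over all chromosomes. Between 52 and 54 Mb 40 of 86 peaks were gained, 46.5% (35.7 to 57.6%), and beyond 54 Mb 50 of 312, 16.0% (12.1 to 20.6%). The 90 peaks were weak, with a median width of 120.5 bases and a median log10 p-value of −3.26, 81 of them had a single block, and 75 lay in a gene that had a peak in the second control. Over all chromosomes the 4250 gained peaks of SETD2 #2 had medians of 120 bases and −3.46. Of those, 3360 had a single block and 77.2% lay in such a gene. The control of the first set had a peak at 37 of the 90 distal gains. It also had a peak at 146 of the 252 gains in the rest of chromosome 19 and at 2070 of the 4250. The SETD2 #2 list was 5.69% shorter than the second control in the region but 28.4% longer between 52 and 54 Mb. SETD2 #1 did not share this gain, with 6 gained among 50 peaks at the near end, 12% (4.53 to 24.3%), but the shRNAs were compared with different controls and the difference was not tested.

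The 90 gains of SETD2 #2 lay in 60 genes, and the 40 between 52 and 54 Mb in 20. Genes with the largest differences in peak number are given next. ENSG00000170949.17, on the minus strand at chr19:53571267-53598622, had 6 peaks in SETD2 #2 and 1 in the second control, with 1 in the control and between 0 and 2 in the other lists. ENSG00000198464.13, on the plus strand at chr19:52800430-52829056, had 5 peaks in SETD2 #2 and 1 in each of the other 6 lists. On the minus strand, the genes at chr19:52616583-52620041, chr19:53268765-53321257 and chr19:53342782-53360902 had 4, 5 and 4 peaks in SETD2 #2 and 1, 2 and 1 in the second control. Of the 34 genes with a second-control peak at the near end, 10 had more peaks in SETD2 #2, 18 had as many and 6 had fewer. Beyond 54 Mb 30 of 139 genes had more and 55 had fewer. The gain with the best p-value, chr19:53844122-53848883 on the plus strand, had 3 blocks of 270 bases in all, a fold enrichment of 26.2 and a log10 p-value of −8.00, and was found in no other list.

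In the opposite direction, the gene at chr19:56146442-56154207 on the plus strand had 5 peaks in the second control and 0 in SETD2 #2, with 3 in the control and 2 in SETD2 #1. Another gene on that strand has peaks at chr19:56146825-56156988, with 4 in the second control and 2 in SETD2 #2, so peaks of this stretch can be assigned to either gene. Such overlap was common in the region. In the control list 84 of the 466 distal peaks (18.0%) overlapped another peak of the same list on the same strand, mostly under another gene identifier, against 11.2% in the rest of chromosome 19. Over the 7 lists the distal share ran from 11.1 to 20.3%. The treatment of reads that map to several similar genes is not given in the sources used here, so peaks of near-identical genes are uncertain.

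Where a distal control peak matched exactly 1 peak of another list, it was usually narrower there. Of 232 such peaks in METTL3, 55.2% (48.5 to 61.7%) were narrower, against 44.2% (41.8 to 46.7%) in the rest of the chromosome and 56.7% over all chromosomes. The share was 60.9% (54.1 to 67.5%) in METTL14, against 49.9% and 62.4%, and 60.1% (53.1 to 66.8%) in WTAP, against 48.1% and 62.2%. In SETD2 #1 it was 70.5% (63.8 to 76.6%), against 63.3% and 64.9%, and in SETD2 #2, compared with the second control, 53.4% (46.6 to 60.2%), against 49.5% and 44.1%. Of 194 matched peaks in the second control 69.1% (62.1 to 75.5%) were narrower than in the control, against 68.7% and 60.7%. The narrowing between the controls was thus as frequent as that in SETD2 #1 and more frequent than that in the writer knockdowns.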

How the data were processed

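m6A-seq of HepG2 cells was analysed from 7 lists of peaks, 1 for each condition, each made from 3 IP and 3 input libraries. FastQC 0.11.5, TopHat2 2.1.1 and the build hg19 appear in the submitters' processing notes. Peaks were called by the authors with exomePeak, with the 3 replicates pooled, per the labels. The exomePeak version, its gene annotation and the numbers of reads are not given in the sources read, so the precision that depth gives a peak is unknown. Each deposited table holds a p-value per peak, its log10 and that of the false discovery rate (FDR) as scores, and a fold enrichment, the ratio of IP over input. The largest FDR was 0.05. Both were computed by the authors and served to describe, rank and filter peaks.

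Repeated rows (11 to 21 per list) were counted once. Peaks were assigned by their start position, and lists were compared with bedtools 2.31.1, on the same strand, by at least 1 shared base of their blocks. Further values were computed with Python 3.11.15, numpy 2.4.6, pandas 2.3.3 and scipy 1.17.1, and the absence calls were tested on simulated data. Named were the 10 genes with the most control peaks, of which those that show the range are given, the 5 control peaks with the best p-values, the best 3 absent and 2 gained peaks of each knockdown, from which examples are given, and the strongest peaks absent from METTL3, METTL14 and WTAP. Other genes and the windows from 52 to 54 Mb were chosen after their values were seen. Members and lists were chosen with earlier results of these data known. Lists of zinc finger genes, other gene groups and cell type markers were planned by gene name and could not be applied, since the files hold identifiers alone. No sequences are shown, as no hg19 genome was used here. Alternatives were another overlap, the authors' shorter list, a stricter FDR, whole spans, repeated rows kept, a later region start and classes by fold enrichment.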

Additional observations from a re-analysis of the deposited data

How the results depend on the processing

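The absent share in distal chromosome 19 was above that of the rest of the chromosome for all 5 knockdowns under each of the 7 alternatives in which both were computed, while the order of gained shares changed for METTL3, METTL14, WTAP and SETD2 #1. Of 138 alternative values, 86 stayed within the interval of the value reported and 52 moved outside it. Counting a peak as shared from an overlap of at least 50% of both peaks, absent shares were 37.8% (METTL3), 48.9% (METTL14), 47.9% (WTAP), 50.9% (SETD2 #1) and 44.5% (SETD2 #2), and gained shares were 30.4, 38.4, 36.4, 39.8 and 40.7%. With the authors' shorter list (p-value at most 1e-05 and fold enrichment at least 2) and with an FDR of at most 1e-05, respectively, METTL3 lacked 19.2 and 17.7%, SETD2 #1 gained 3.52 and 2.28%, and SETD2 #2 gained 13.9 and 11.98%, the last against 9.08 and 7.78% in the rest of chromosome 19. Peaks per gene in the shorter lists were 1.91 (control), 1.96 (METTL3), 1.93 (METTL14), 2.00 (WTAP), 1.88 (SETD2 #1), 1.82 (second control) and 1.73 (SETD2 #2). At the stricter FDR they were 1.90, 1.89, 1.95, 2.00, 1.87, 1.86 and 1.75 in the same order. Median widths in that order were 359, 360.5, 363, 391, 301, 301 and 254.5 bases over the whole span with introns, 387, 360, 359, 301, 360, 328.5 and 330 in the shorter lists, and 391, 387, 389, 301, 389, 329 and 330.5 at the stricter FDR. With classes by fold enrichment the share of second-control peaks absent from SETD2 #2 at the rates of the rest was 22.4%, below the 27.7% found, where p-value classes gave 29.5%. The cause was not tested beyond what each alternative removes. Further alternatives were added after seeing the data. Leaving out the window from 53 to 54 Mb gave absent shares of 21.5, 28.5, 30.6, 31.1 and 27.2%, against 18.7, 24.0, 22.97, 27.7 and 22.6% in the rest. Counting overlapping peaks of a list once gave 26.7, 33.4, 35.3, 34.8 and 27.0%. No paired analysis was possible because replicates were pooled into 1 list per condition, so no replicate could be left out either. Depth per library is unknown, and a peak missing from a list cannot be told apart from a transcript with too few reads.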

Other observations

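Other stretches of chromosome 19, chosen after their values were seen and given without a test, also had high absent shares and weak peaks. Between 20 and 25 Mb, METTL3 lacked 12 of 21 control peaks, METTL14 14, WTAP 16, SETD2 #1 17 and the second control 17 as well. The median log10 p-value of those 21 peaks was −3.64. The stretch from 51 to 52 Mb adjoins the region. There METTL3 lacked 12 of 26 control peaks, METTL14 9, WTAP 8, SETD2 #1 12 and the second control 14. Between 37 and 39 Mb, 26 of 71 control peaks (36.6%, 25.5 to 48.9%) were absent from METTL3, 35 (49.3%, 37.2 to 61.4%) from METTL14 and as many from WTAP, with 26 absent from the second control. Between 44 and 45 Mb, 28 of 80 (35.0%, 24.7 to 46.5%) were absent from METTL3, 36 (45%, 33.8 to 56.5%) from METTL14 and from WTAP, 34 from SETD2 #1 and 29 from the second control.

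Within distal chromosome 19, from 55 to 56 Mb, 11 of 89 control peaks (12.4%, 6.33 to 21.04%) were absent from WTAP, at place 461 of 493 windows ordered from the highest absent share. In SETD2 #1 the same window lacked 34 of 89 peaks (38.2%, 28.1 to 49.1%), and the second control lacked 38 (42.7%, 32.3 to 53.6%). Between 57 and 58 Mb the second control lacked 3 of 44 control peaks (6.82%, 1.43 to 18.7%), at place 487 of 493.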
